A study of Mus musculus with 16 samples.

Results

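Transcripts of 10 genes that foetal liver hepatoblasts use to make secreted plasma proteins were measured in sorted erythroblasts. The genes were *Alb*, *Afp*, *Trf*, *Ttr*, *Ahsg*, *Fgb*, *Apoa1*, *Apoa2*, *Apob* and *Apoe*. They were taken from the read-count table by gene symbol, and each of the 10 matched 1 of the 55416 genes in the table.

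The study asked what loss of *Nprl3*, a subunit of the GATOR1 complex that restrains mTORC1, does to red cell formation. S1 cells (CFU-E progenitors) and S3 cells (basophilic erythroblasts) were sorted by Ter119 and CD71 from foetal livers at E13.5 on a C57BL/6J background. The 8 embryos were 4 wild-type (WT, embryos 0, 1, 5 and 8), 2 heterozygous (Het, embryos 3 and 4) and 2 homozygous for a constitutive deletion of the *Nprl3* promoter (KO, embryos 2 and 9), and each gave 1 library per stage, 16 in all. Replicates here are embryos. Embryos 0, 3, 4, 8 and 9 were titled male and embryos 1, 2 and 5 female, so that both Het embryos were male. The deletion is carried by every cell of the embryo, hepatoblasts included.

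Hepatoblasts are the bipotent epithelial cells of the foetal liver, from which hepatocytes and cholangiocytes arise. They sit among the erythroblasts, which fill most of the organ at this age, and they secrete albumin, alpha-fetoprotein, transferrin and apolipoproteins. Erythroblasts take up transferrin through its receptor and are not known to make albumin or alpha-fetoprotein, whereas apolipoprotein E is also made by macrophages and by some blood progenitors. In bulk libraries, fewer cells of a type and less RNA per cell cannot be told apart.

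Total counts ran from 20666044 to 37609502 per library. Levels are given as CPM, the count relative to the library size after TMM scaling in edgeR over the 16 libraries, unless library totals are named. The source and tissue fields of the labels name an embryonic stem cell line, whereas the titles and the protocol give sorted foetal liver cells. The sorted cells carried the erythroid programme, with 10 erythroid markers summing to between 1763 and 8928 CPM at S1 and between 140700 and 184000 CPM at S3. Globins took 0.0738% to 1.07% of the counts at S1 and 10.0% to 11.9% at S3. *Nprl3* had counts of 881, 897, 945 and 1588 in the WT S1 libraries, 605 and 452 in Het and 13 and 32 in KO, a log2 fold change of KO against WT of -5.72 (SE 0.43, adjusted p = 0.0198 by Benjamini-Hochberg in edgeR, whose quasi-likelihood test is used throughout). At S3 its KO counts were 1730 and 2069 against 2953 to 3883 in WT, a log2 fold change of -0.56 (SE 0.18, edgeR adjusted p = 0.353). *Nprl3* shares 1340 exon bases with *Mpg* on the opposite strand, and reads were counted without strand. The study's text also describes spliced transcripts that start from the alpha-globin enhancers inside *Nprl3* introns in erythroblasts, and their part in the S3 counts was not tested.

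All 10 transcripts were detected in every library. Together they took 0.0121% to 0.0579% of the counts at S1 and 0.00819% to 0.0741% at S3. Their summed level in WT was 272 ± 145 CPM at S1 and 525 ± 333 CPM at S3 (SD, n = 4). Relative to library totals alone it was higher at S3 in WT embryos 0 and 1 and lower in 5 and 8, with 579, 207.6, 185.5 and 560.7 CPM at S1 and 741.1, 219.9, 160.4 and 407.8 CPM at S3 in embryos 0, 1, 5 and 8. With TMM scaling the sum in Het was 105 ± 15.3 CPM at S1 and 188 ± 38.3 CPM at S3 (SD, n = 2). In KO it was 206 ± 93.6 CPM at S1 and 181 ± 103 CPM at S3 (SD, n = 2). Relative to library totals, Het embryos 3 and 4 had 153.3 and 121.1 CPM at S1 and 111.1 and 161.3 CPM at S3. KO embryos 2 and 9 had 182.4 and 397.6 CPM at S1 and 81.92 and 206.1 CPM at S3 on that scale. The spread within WT and KO was large beside their means, and embryos that were high at S1 (WT 0 and 8, KO 9) were also the high ones of their group at S3. *Apoe* supplied a large part of the sum at S1, and without it the sums in single S1 libraries ran from 23.5 CPM in Het embryo 4 to 358 CPM in WT embryo 0.

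Per kilobase of exon, the median level was highest for *Apoe* at S1 and for *Apoa2* at S3, each above the next in 6 of 8 libraries. In WT embryos 0 and 8 *Afp* was above both of these, at 44.0 and 45.05 CPM per kilobase at S1 and at 117 and 74.05 at S3. At S1 the medians over 8 libraries, in CPM per kilobase, were 34.2 for *Apoe*, 13.7 for *Apoa2*, 6.43 for *Afp*, 5.42 for *Trf*, 4.38 for *Apoa1*, 3.98 for *Alb*, 2.67 for *Ttr*, 0.652 for *Fgb*, 0.601 for *Ahsg* and 0.0318 for *Apob*. Neighbours such as *Apoa1* and *Alb*, or *Fgb* and *Ahsg*, were not ordered, since each was the higher in 4 of 8 libraries. *Trf* was above *Apoa1*, *Alb* above *Ttr*, *Ttr* above *Fgb* and *Ahsg* above *Apob* in 8 of 8. At S3 the median of *Apoa2* was 43.9, that of *Afp* 23.5, of *Trf* 16.7, of *Alb* 14.6 and of *Apoe* 10.0 CPM per kilobase. Among the 13206 genes with a mean normalized count over 10, *Alb* was above 55.7% in level per kilobase at S1 and above 76.2% at S3.

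**Figure D1:**
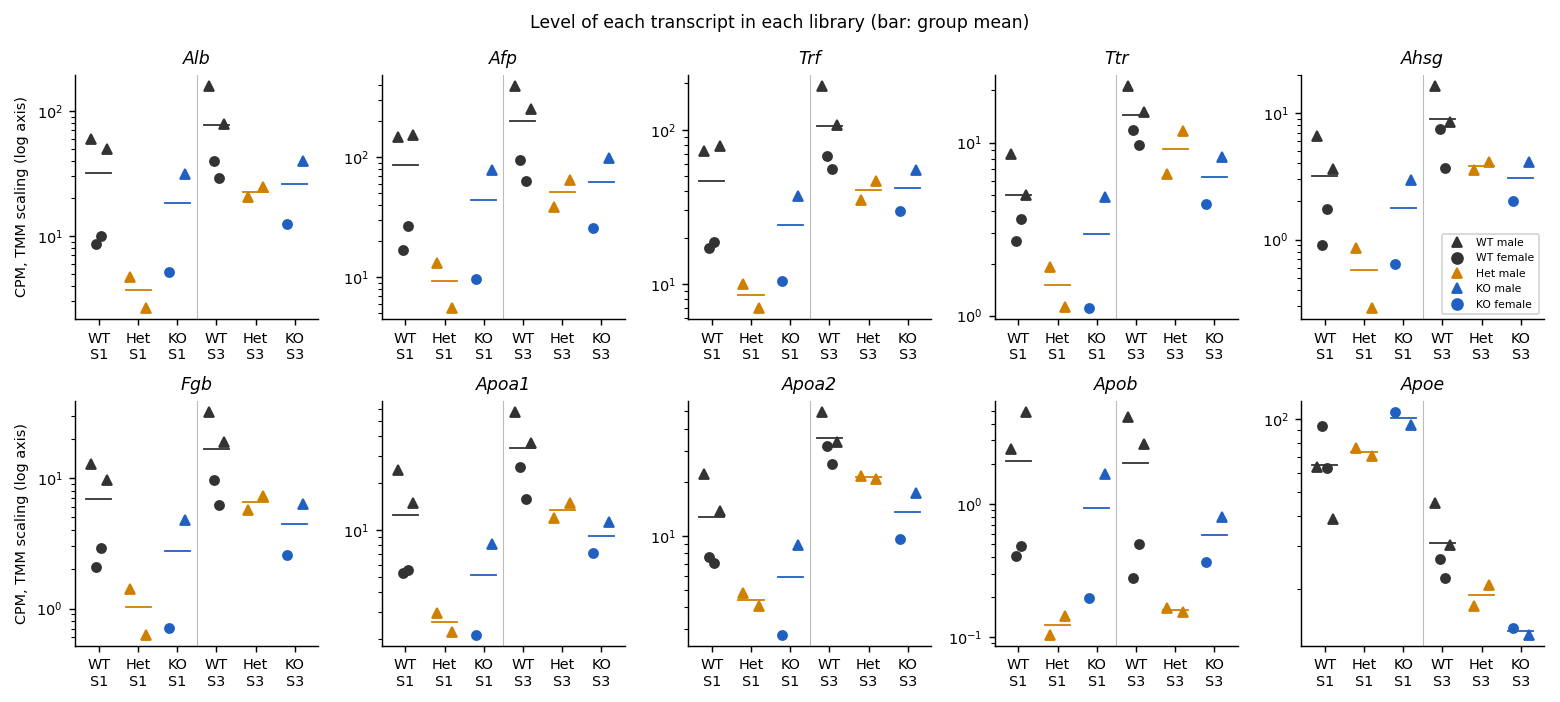
CPM with TMM scaling (log axis) of each of the 10 transcripts in the 16 libraries, grouped by genotype and stage, with triangles for male and circles for female embryos and a bar at the group mean. Every transcript but *Apoe* was highest in male WT embryos at S1 and low in the Het embryos, while *Apoe* had its highest S1 value, 107 CPM, in a KO embryo.

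*Alb* and *Afp* encode serum albumin and alpha-fetoprotein, the main plasma proteins of the foetal liver, and lie in tandem on chromosome 5 in mm39. *Alb* (ENSMUSG00000029368.11) spans chr5:90608756-90624461 and *Afp* (ENSMUSG00000054932.7) chr5:90638596-90656766, both on the plus strand, with 14134 bases between them. The stretches of 250 bases before the RefSeq start of each are shown because the levels of these neighbours kept nearly the same ratio across libraries, beside the same stretch of *Apoe*, whose ratio to them varied most at S1. Capitals mark GTTAATNAT, a form of the HNF1 site, and TATAAA, the core promoter box that it spells, both searched on either strand.
Alb: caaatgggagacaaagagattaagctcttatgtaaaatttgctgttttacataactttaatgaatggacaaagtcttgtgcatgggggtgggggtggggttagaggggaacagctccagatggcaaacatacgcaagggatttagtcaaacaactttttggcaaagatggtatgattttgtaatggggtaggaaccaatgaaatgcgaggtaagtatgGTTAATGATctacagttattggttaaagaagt
Afp: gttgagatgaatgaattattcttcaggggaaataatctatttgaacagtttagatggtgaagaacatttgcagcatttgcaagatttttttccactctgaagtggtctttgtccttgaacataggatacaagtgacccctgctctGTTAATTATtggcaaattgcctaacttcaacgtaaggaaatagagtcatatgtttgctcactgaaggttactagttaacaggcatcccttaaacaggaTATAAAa
Apoe: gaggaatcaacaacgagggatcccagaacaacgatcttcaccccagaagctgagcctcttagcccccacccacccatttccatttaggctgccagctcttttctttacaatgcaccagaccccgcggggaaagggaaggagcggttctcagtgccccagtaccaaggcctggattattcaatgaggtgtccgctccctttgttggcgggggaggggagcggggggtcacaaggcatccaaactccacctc
In GRCm39 these are chr5:90608479-90608728 (plus strand) for *Alb*, chr5:90638323-90638572 (plus strand) for *Afp* and chr7:19433114-19433363 (minus strand) for *Apoe*, placed there by exact match of the RefSeq sequences, which come from a table on GRCm38.p6. The table gave promoters for 8 of the 10 genes, in 11 windows, all but *Trf* and *Ttr*. The HNF1 form was in the windows of *Alb* and *Afp* among those 8, and in 0.737% of all 32851 promoters. TATAAA was in a window of *Afp*, *Apoa2*, *Apob* and *Apoe*, one of the other start sites in the case of *Apoe*, and in 12.4% of all promoters. CAAAGTCCA, a form of the HNF4 site found in 0.384% of all promoters, and AGATAA, which erythroid GATA factors bind and which 9.99% held, were in none of the windows of the 8 genes, which says only that these letters were not there.

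*Alb* counts in WT S1 libraries were 1899 in embryo 0, 345 in embryo 1, 391 in embryo 5 and 2416 in embryo 8. They were 225 and 92 in Het embryos 3 and 4, and 208 and 1489 in KO embryos 2 and 9. High and low libraries thus occurred within both WT and KO. In S3 libraries the *Alb* counts were 3766, 857, 752 and 1147 in WT embryos 0, 1, 5 and 8, 369 and 479 in Het, and 203 and 741 in KO embryos 2 and 9.

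*Afp*, like *Alb*, was highest in WT embryos 0 and 8 at both stages. Its level in WT S1 libraries was 148, 16.8, 26.5 and 152 CPM in embryos 0, 1, 5 and 8, in Het 13.2 and 5.51 CPM, and in KO 9.62 and 77.6 CPM. At S3 it was 393, 94.0, 62.9 and 249 CPM in WT, 38.5 and 64.0 CPM in Het, and 25.9 and 98.1 CPM in KO. The ratio of *Afp* to *Alb* varied far less than either level. *Afp* differed 27.5-fold between the highest and lowest S1 library, and its ratio to *Alb* in the same library differed 1.62-fold. At S3 the corresponding ranges were 15.2-fold and 1.68-fold.

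*Trf* encodes transferrin, the iron carrier that erythroblasts import. Its S1 level was 73.3, 17.2, 18.8 and 78.3 CPM in WT embryos 0, 1, 5 and 8, 9.91 and 6.95 CPM in Het, and 10.5 and 37.4 CPM in KO embryos 2 and 9. At S3 it was 194, 68.0, 56.0 and 107 CPM in WT, 35.2 and 46.6 CPM in Het, and 29.5 and 54.8 CPM in KO. As with *Alb*, embryos 0 and 8 led the WT group at both stages and embryo 9 was the higher of the KO pair.

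*Ttr*, which carries thyroxine and retinol-binding protein, ran from 1.10 to 8.55 CPM at S1 and from 4.44 to 21.3 CPM at S3. *Ahsg*, the mineral-binding glycoprotein fetuin-A, ran from 0.287 to 6.56 CPM at S1 and from 2.03 to 16.4 CPM at S3. *Fgb*, the beta chain of fibrinogen, ran from 0.632 to 12.8 CPM at S1 and from 2.59 to 31.99 CPM at S3. Each had its highest value in WT embryo 0 at both stages. The *Ahsg* counts shared 62 exon bases with a gene model on the opposite strand, Gm30505, and are uncertain to that extent.

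*Apoa1* and *Apoa2* encode the main proteins of high-density lipoprotein. *Apoa1* ran from 2.14 to 24.4 CPM at S1 and from 7.09 to 57.2 CPM at S3. *Apoa2* was 22.3, 7.62, 7.05 and 13.9 CPM in WT S1 libraries of embryos 0, 1, 5 and 8, 4.77 and 4.02 CPM in Het, and 2.80 and 8.96 CPM in KO embryos 2 and 9. Its S3 level was 49.7, 32.2, 25.5 and 33.9 CPM in WT, 21.7 and 20.98 CPM in Het, and 9.68 and 17.4 CPM in KO. As with *Apoa1*, embryo 0 was the highest WT library at both stages and embryo 9 the higher of the KO pair.

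*Apob*, the scaffold protein of very low-density lipoprotein, was the lowest of the 10. Its counts were 83, 16, 19 and 239 in WT S1 libraries of embryos 0, 1, 5 and 8, 5 and 5 in Het, and 8 and 79 in KO embryos 2 and 9. At S3 they were 106, 6, 13 and 41 in WT, 3 and 3 in Het, and 6 and 15 in KO. The lowest of these counts leave wide counting error, and at S3 the ratio of *Apob* to *Alb* varied more than that of any other of the 10, with an SD of 1.01 on the log2 scale.

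*Apoe* (ENSMUSG00000002985.17, chr7:19430034-19433113 in mm39, minus strand) encodes the ligand that lipoprotein remnants offer to their receptors. Its counts in S1 libraries were 2038, 3714, 2467 and 1886 in WT embryos 0, 1, 5 and 8, 3623 and 2455 in Het, and 4358 and 4463 in KO. These did not follow *Alb*, since WT embryo 8, with the most *Alb* counts, had the fewest of *Apoe*. At S3 *Apoe* counts were 1068, 566, 577 and 438 in WT, 304 and 404 in Het, and 224 and 242 in KO.

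The spread of the ratio to *Alb* set *Apoe* apart at S1. The SD over the 8 S1 libraries of log2 CPM was 1.83 for *Afp*, 1.68 for *Alb* and 1.33 for *Trf*, and the SD of their log2 ratio to *Alb* was 0.26 for *Afp* and 0.39 for *Trf*. *Fgb* and *Ahsg* had SDs of this ratio of 0.40 and 0.44, and the other apolipoproteins and *Ttr* of 0.57 to 0.89. For *Apoe* the SD of its own level was 0.46 and that of its ratio to *Alb* was 1.94, a 34.2-fold range. At S3 the ratio of *Apoe* to *Alb* had an SD of 0.73 and a 3.89-fold range, beside 0.23 to 0.63 for the transcripts other than *Apob*, which had 1.01.

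**Figure D2:**
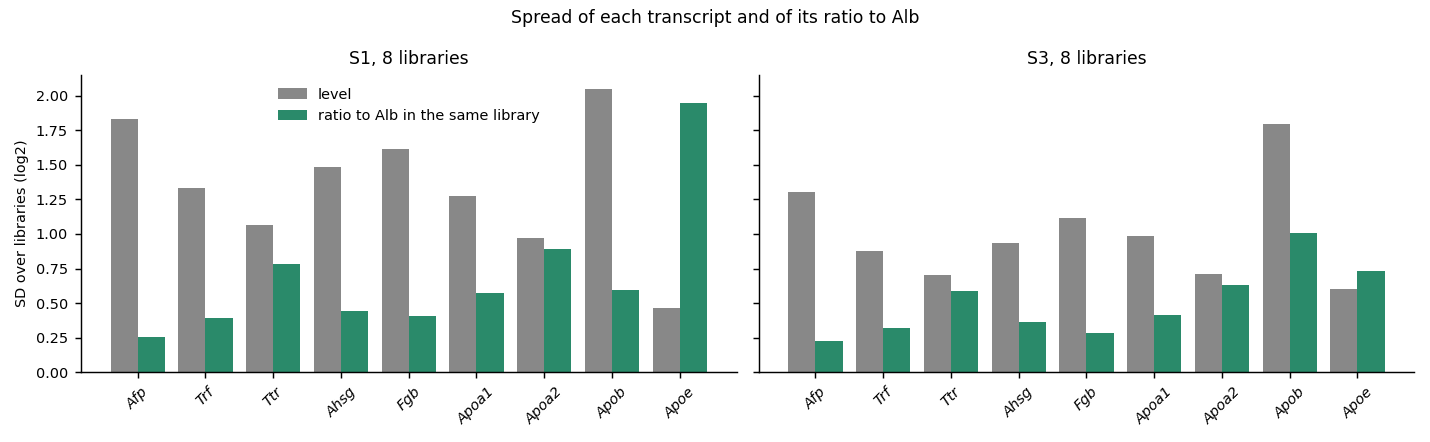
SD over the 8 libraries of each stage (log2 scale) of each transcript's level (grey) and of its ratio to *Alb* in the same library (green). The ratio varied less than the level for *Afp*, *Trf*, *Ttr*, *Apoa1*, *Apoa2*, *Apob*, *Ahsg* and *Fgb* at both stages, and more for *Apoe*, at 1.94 against 0.46 at S1.

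Across the 16 libraries, each transcript's log2 deviation from its stage mean was set beside the mean deviation of the 10. Pearson's r was 0.909 to 0.992 for the 9 other than *Apoe* and 0.209 for *Apoe*. Each transcript is part of the mean it was compared with, and the libraries share embryos, so these values describe the libraries only. The 5 other genes with the most similar pattern were *Serpinc1* (r = 0.985), *Serpina6* (0.985), *Ambp* (0.984), *Rbp4* (0.983) and *Serpinf2* (0.981), which encode antithrombin, corticosteroid-binding globulin, the bikunin precursor, retinol-binding protein and alpha-2-antiplasmin, all plasma proteins of the liver. The median r over the 13206 genes was 0.00345.

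Other hepatocyte and hepatoblast genes were checked against the label. Of 21 further plasma protein genes, 18 passed the filter over the 16 libraries, with a median r of 0.960 to the mean of the 10, and *Rbp4* was the highest per kilobase. Of 14 hepatic transcription factors 3 passed, *Hnf4a* (r = 0.766), *Foxa3* (r = 0.741) and *Hhex* (r = -0.0932), which is also a factor of blood progenitors. *Hnf4a* averaged 1.07 CPM in WT S1 libraries. Of 12 hepatoblast surface and epithelial genes 7 passed, with a median r of 0.713. They were *Krt8* (r = 0.844), *Dlk1* (0.813), *Cldn1* (0.777), *Gpc3* (0.713), *Lgr4* (0.649), *Krt18* (0.492) and *Met* (0.216), and *Krt19* was at 0 in every library. The late hepatocyte enzymes *Cps1* and *Tat* were also at 0 throughout, as were the apolipoprotein genes *Apoa4* and *Apoc2*.

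From S1 to S3, most of the 10 rose relative to other genes and *Apoe* fell. Within each of the 8 embryos *Afp*, *Alb*, *Ttr*, *Trf*, *Apoa1*, *Apoa2*, *Ahsg* and *Fgb* were higher at S3 than at S1, by medians of 1.42 (*Afp*) to 1.82 (*Apoa2*) on the log2 scale. *Apoe* was lower at S3 in 8 of 8 embryos, by -0.36 in WT embryo 8 up to -2.95 in KO embryo 2, and *Apob* was higher in 5 of 8.

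In a fit over all genotypes, 8 of the 10 were higher at S3 (edgeR, adjusted p under the threshold of 0.05), in a comparison in which 35.2% of the 13206 genes tested were higher and 44.1% were lower. *Ttr* had the largest log2 fold change, 1.68 (SE 0.33, edgeR adjusted p = 0.000196), *Apoa2* had 1.603 (SE 0.28, edgeR adjusted p = 5.65e-05), and *Alb* had 1.39 (SE 0.52, edgeR adjusted p = 0.0221). *Apoe* fell by 1.73 on the log2 scale (SE 0.26, edgeR adjusted p = 8.74e-06), and *Apob*, at -0.16 (SE 0.65), did not pass. The median log2 fold change of the 10 was 1.42 and that of all genes tested -0.17. Without Het embryo 3 or Het embryo 4 the number higher was 6, and without the KO S3 library of embryo 9 it was 7.

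Within WT, *Ttr*, *Apoa1*, *Apoa2* and *Ahsg* were higher at S3, 4 of 10 beside 29.5% of the 13346 genes tested, and *Apoe* was lower with a log2 fold change of -1.03 (SE 0.28, edgeR adjusted p = 0.00716), beside 35.7% of all genes. With the embryo as a replicate block, which removes the differences between embryos, 8 of the 10 were higher in WT (all but *Apob* and *Apoe*), beside 31.8% of all genes. *Afp* then had a log2 fold change of 1.47 (SE 0.26, edgeR adjusted p = 0.000759), against 1.21 (SE 0.77, adjusted p = 0.188) without the block. Without WT embryo 1, 5 or 8 the number higher in the unblocked WT fit was 2.

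These stage differences depend on the scale. When counts were divided by library totals alone, the median log2 fold change of all genes tested went from -0.13 to -1.15 in WT, and 0 of the 10 were higher at S3, beside 13.4% of all genes, with 1 (*Apoe*) lower. Over all genotypes the median of all genes went to -1.10, and 2 of the 10 were higher, beside 17% of all genes. Relative to the median of all genes, the median of the 10 in WT differed by 1.40 with TMM scaling and by 1.46 with library totals. *Apoe* was lower at S3 on both scales in 8 of 8 embryos, and *Apoa2* was higher on both in 8 of 8.

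**Figure D3:**
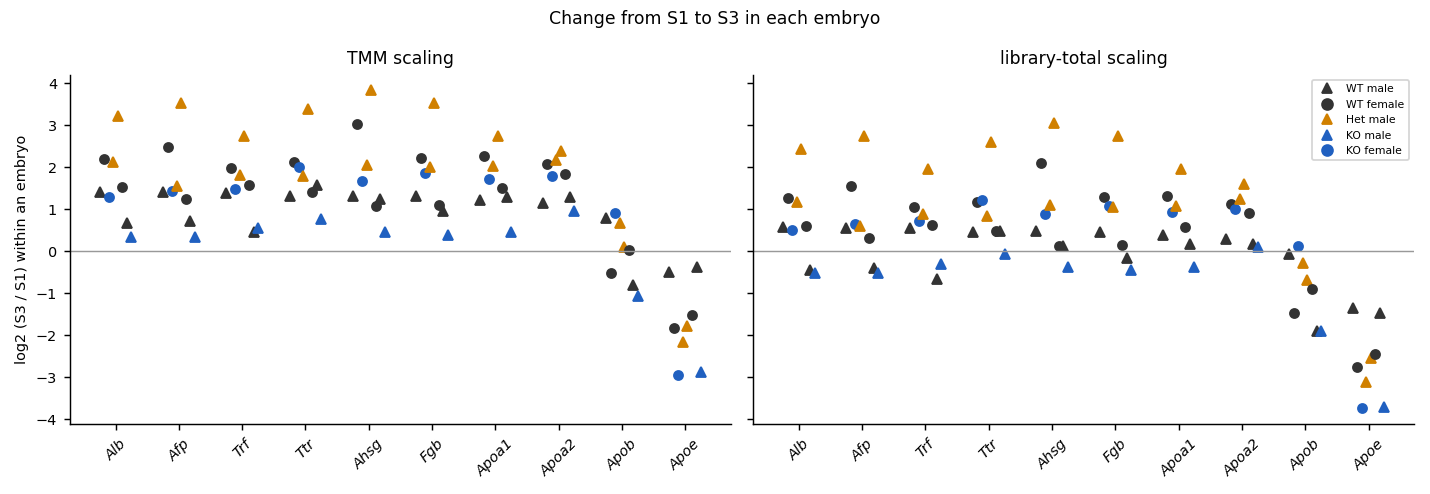
Log2 ratio of the S3 to the S1 level within each of the 8 embryos for the 10 transcripts, with TMM scaling (left) and library-total scaling (right), coloured by genotype and shaped by sex. On the left 8 transcripts lie above 0 in all 8 embryos and *Apoe* below 0 in all 8, with the KO embryos lowest at -2.95 and -2.87. On the right the same points lie lower.

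Markers of other cells also changed between stages. Of 14 island macrophage markers tested over all genotypes, 12 were higher and 1 was lower at S3, beside 35.2% and 44.1% of all genes, with a median log2 fold change of 2.04. The lower one was *Csf1r*, at -0.82 (SE 0.30, edgeR adjusted p = 0.0204), and *Cd68*, at -0.04 (SE 0.25), did not pass. Their summed level ran from 12.3 to 43.3 CPM at S1 and from 20.9 to 98.4 CPM at S3. *C1qb* and *Fcna*, the highest of this list per kilobase, averaged 10.8 and 7.76 CPM in WT at S3, and *Vsig4* was at 0 in every library. Of the 18 other plasma protein genes tested, 13 were higher and 0 lower at S3 over all genotypes, beside the same shares of all genes. Of 6 hepatocyte enzymes 5 were higher and 1 was lower. Hepatoblast surface and epithelial genes did not rise together, with 2 of 7 higher (*Krt8*, *Cldn1*), 2 lower (*Met*, *Lgr4*) and a median log2 fold change of 0.18. Of 3 hepatic transcription factors *Foxa3* was higher and *Hhex* lower, with a median of -0.58. The part of these lists in the stage difference of the 10 was not tested. The transferrin receptor *Tfrc* had a log2 fold change of 2.41 (SE 0.18, edgeR adjusted p = 2.28e-09), a mean of 2118 CPM in WT at S3.

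In KO against WT at S1, none of the 10 passed the test with edgeR (adjusted p = 1.0 for each, and 0 had an unadjusted p under 0.05), in a comparison in which 0.00713% of the 14025 genes tested, or 1 gene, did. The log2 fold change was negative for 9 of the 10, from -0.72 for *Ttr* (SE 0.66) to -1.30 for *Fgb* (SE 0.96), and 0.66 for *Apoe* (SE 0.29). These values rest on single embryos, since the median of the 10, -0.97, was -0.23 without KO embryo 2, -2.44 without KO embryo 9 and -0.63 without WT embryo 8. For those 9 the KO pair overlapped the WT libraries, with embryo 2 low and embryo 9 inside the WT range. Both KO libraries lay above all WT libraries for *Apoe*, at 107 and 94.3 CPM against 38.8 to 93.7 CPM, as they did for 6.17% of all genes, and below all WT for 0 of 10, as for 3.74% of all genes.

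In KO against WT at S3, the log2 fold change was negative for 10 of 10, and none passed the test with edgeR (adjusted p = 0.183 to 0.775), beside 0.51% of the 11756 genes tested. The median over the 10 was -1.51 and that of all genes -0.0035. *Apoa2* was lowest in p, with means of 13.6 CPM in KO and 35.3 CPM in WT, a log2 fold change of -1.33 (SE 0.33, edgeR adjusted p = 0.183). *Apoe* had means of 13.4 and 31.0 CPM, a log2 fold change of -1.17 (SE 0.29, edgeR adjusted p = 0.184). An unadjusted p under 0.05 was found for 7 of the 10 and for 8.58% of all genes. Both KO libraries lay below all WT libraries for 5 of 10 (*Ttr*, *Trf*, *Apoa1*, *Apoa2* and *Apoe*), as they did for 12.1% of all genes. With DESeq2 3 of the 10 were lower at S3, beside 0.97% of all genes, and without the filter on low counts 9 were, beside 0.586%. The median of the 10, -1.51, was -1.002 without KO embryo 2, -0.97 without WT embryo 0, -1.78 without WT embryo 5 and -2.13 without KO embryo 9.

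The KO S3 libraries also differed from WT in other lists. All 18 other plasma protein genes tested had a negative log2 fold change (median -1.74), with 0 called. Of 14 island macrophage markers all were negative (median -1.40) and 2 were lower, *Fcna* (log2 fold change -1.90, SE 0.26, edgeR adjusted p = 0.0263) and *Marco* (log2 fold change -2.60, SE 0.35, edgeR adjusted p = 0.0263). Their summed level was 20.9 and 38.8 CPM in KO against 44.2 to 98.4 CPM in WT. Stellate and mesenchymal markers summed to 42.0 CPM in KO embryo 9, to 2.34 CPM in KO embryo 2 and to 1.80 to 3.68 CPM in WT. The 10 erythroid markers summed to 143400 and 140700 CPM in KO embryos 2 and 9 against 158500 to 184000 CPM in WT. Of these, 9 of 9 tested had a negative log2 fold change (median -0.24), with 0 called. The part of these lists in the lower values of the 10 transcripts was not tested.

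Both Het embryos were low. At S1 both Het libraries lay below all 4 WT libraries for 9 of the 10, all but *Apoe*, as they did for 9.27% of all genes. The log2 fold change for these 9 ran from -1.54 for *Apoa2* (SE 0.52) to -4.11 for *Apob* (SE 1.31), with -3.14 for *Alb* (SE 0.96) and -3.22 for *Afp* (SE 1.08). None passed the test with edgeR (adjusted p = 0.907 to 0.918), beside 0% of the 13790 genes tested, and 9 of 10 had an unadjusted p under 0.05, as did 4.18% of all genes. At S3 both Het libraries were below all WT for 6 of 10 (*Alb*, *Trf*, *Apoa1*, *Apoa2*, *Apob* and *Apoe*), as for 12.4% of all genes. The log2 fold change there was negative for 10 of 10, none passed with edgeR (adjusted p = 0.918 for each, 8 with an unadjusted p under 0.05), and 0% of the 11705 genes tested did. The median at S3, -1.27, was -0.80 without WT embryo 0. Other lists were also low in Het at S3, with the other plasma protein genes at 47.8 and 63.8 CPM against 80.7 to 289 CPM in WT and endothelial markers at 4.78 and 3.74 CPM against 6.13 to 29.3 CPM, while island macrophage markers, at 62.9 and 48.7 CPM, were within the WT range. Their part in the lower values of the 10 was not tested.

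The embryos titled male and female differed in these transcripts, a comparison chosen after the values were seen. At S1 the 3 male WT and KO libraries lay above the 3 female ones for 9 of the 10, all but *Apoe*, as they did for 12.1% of all genes. *Afp* averaged 126 CPM in the males and 17.7 CPM in the females. With genotype in the fit, 7 of the 10 were higher in males at S1 (*Afp*, *Alb*, *Trf*, *Apoa1*, *Apoa2*, *Apob* and *Fgb*), beside 0.478% of the 14025 genes tested. *Afp* had a log2 fold change of 2.91 (SE 0.23, edgeR adjusted p = 0.00136) and *Alb* of 2.61 (SE 0.19, edgeR adjusted p = 0.00102). *Apoe*, at -0.43 (SE 0.24, edgeR adjusted p = 0.351), did not pass. Without WT embryo 0 or WT embryo 8 the number higher was 4.

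At S3, 9 of the 10 were higher in males, all but *Apoe*, beside 12.4% of the 11756 genes tested. The male libraries lay above all female ones for *Afp* and *Apob*, 2 of 10, as for 14.2% of all genes. *Afp* had a log2 fold change of 2.04 (SE 0.18, edgeR adjusted p = 0.000557) and *Apoa2* of 0.67 (SE 0.15, edgeR adjusted p = 0.0105). *Apoe* had 0.47 (SE 0.18, edgeR adjusted p = 0.0884). Of the other plasma protein genes, 13 of 19 tested at S1 and 16 of 18 at S3 were also higher in males. The Het embryos, both male, went the other way, with *Alb* at 4.71 and 2.64 CPM at S1 against 8.70 and 9.95 CPM in the WT females. Among other lists at S3, 3 of 7 endothelial markers and 2 of 4 mesenchymal markers tested were higher in males and 3 of 14 island macrophage markers were lower. With 3 embryos of each sex, sex and any other difference between these embryos, such as litter or sort, cannot be told apart.

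Globin transcripts made up most of the mean erythroid sum of WT at S1, with *Hba-a1* at 2041 and *Hbb-bs* at 1393 CPM, and that sum also differed between embryos. The 10 erythroid markers summed to 8928 and 7986 CPM in WT embryos 0 and 8 and to 3187 CPM in KO embryo 9, against 2326 and 3303 CPM in WT embryos 1 and 5 and 1763 CPM in KO embryo 2. The Het embryos had 2044 and 2299 CPM. The erythroid factors *Gata1* and *Klf1* had r of -0.425 and -0.309 to the mean of the 10 transcripts, and log2 differences between the sexes at S1 of 0.027 (SE 0.16) and 0.024 (SE 0.19). In the comparison of the sexes 5 of these 10 were higher in males at S1, *Hbb-bs* with a log2 fold change of 2.12 (SE 0.22, edgeR adjusted p = 0.00738). At S3 1 of 9 tested, *Slc4a1*, was higher. Their part in the differences of the 10 transcripts between embryos was not tested.

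With sex as a covariate the genotype differences had smaller errors. At S3, 9 of the 10 were then lower in KO, all but *Apob*, beside 2.26% of the 11756 genes tested, with *Alb* at a log2 fold change of -1.48 (SE 0.25, edgeR adjusted p = 0.00942), where the fit without sex had -1.51 (SE 0.74). At S1, 0 of the 10 passed with edgeR, beside 0.0214% of all genes lower, and 6 were lower with DESeq2, beside 0.371%. In the Het fits the sex term rests on the WT embryos alone, since both Het embryos were male. There, 9 of the 10 were lower at S1 (all but *Apoe*), beside 1.45% of the genes tested, and 10 of 10 at S3, beside 7.32%. *Alb* in Het had a log2 fold change of -3.91 (SE 0.33, edgeR adjusted p = 0.00235) at S1 and of -2.33 (SE 0.26, edgeR adjusted p = 0.00166) at S3. With DESeq2 and sex in the fit the counts were 9 of 10 in KO at S3, beside 3.64% of all genes, 9 in Het at S1, beside 3.48%, and 10 in Het at S3, beside 8.39%. Without sex, 3 were lower in Het at S1 with DESeq2, beside 0.218%, and 6 in Het at S3 without the filter, beside 0.225%. The Het difference in these fits is thus set against the male WT embryos 0 and 8, the highest of the WT embryos in *Alb* at both stages. A fit of male embryos only, 2 Het against 2 WT, makes the same contrast and is not a separate result. *Alb* at S1 had a log2 fold change of -3.911 in it. There, 9 of the 10 were lower at S1, beside 1.79% of the genes tested, and 10 of 10 at S3, beside 10% of them.

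**Figure D4:**
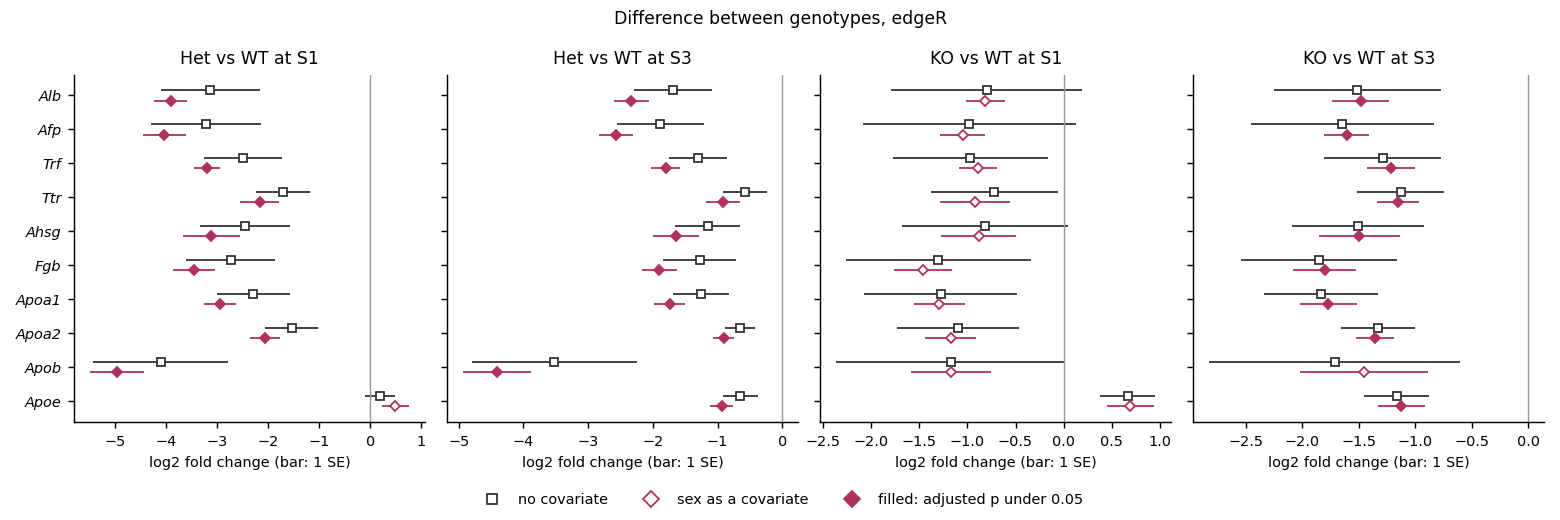
Log2 fold change against WT (bars, 1 SE) for Het and KO at S1 and S3, without a covariate (squares) and with sex as a covariate (diamonds), filled where the edgeR adjusted p was under 0.05. No square is filled, and the diamonds are filled for 9 of 10 transcripts in Het at S1, 10 of 10 in Het at S3, 0 of 10 in KO at S1 and 9 of 10 in KO at S3.

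The difference between KO and WT did not pass a test of change between the stages for any of the 10 (interaction of genotype and stage, edgeR adjusted p = 1.0 for each), beside 0.0075% of the 13329 genes tested. *Apoe* had the interaction with the smallest p of the 10, -1.86 on the log2 scale (SE 0.46), from the KO values above WT at S1 and below WT at S3. With the embryo as a replicate block it was -1.865 (SE 0.41, edgeR adjusted p = 0.577). For the other 9 it lay between -0.28 (*Apoa2*) and -0.77 (*Alb*), within 1 SE of 0 for each, and without KO embryo 9 these 9 were above 0, between 0.03 (*Alb*) and 0.975 (*Apob*). Without only the S3 library of that embryo all 10 were below 0, and their median went from -0.60 to -1.29.

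**Figure D5:**
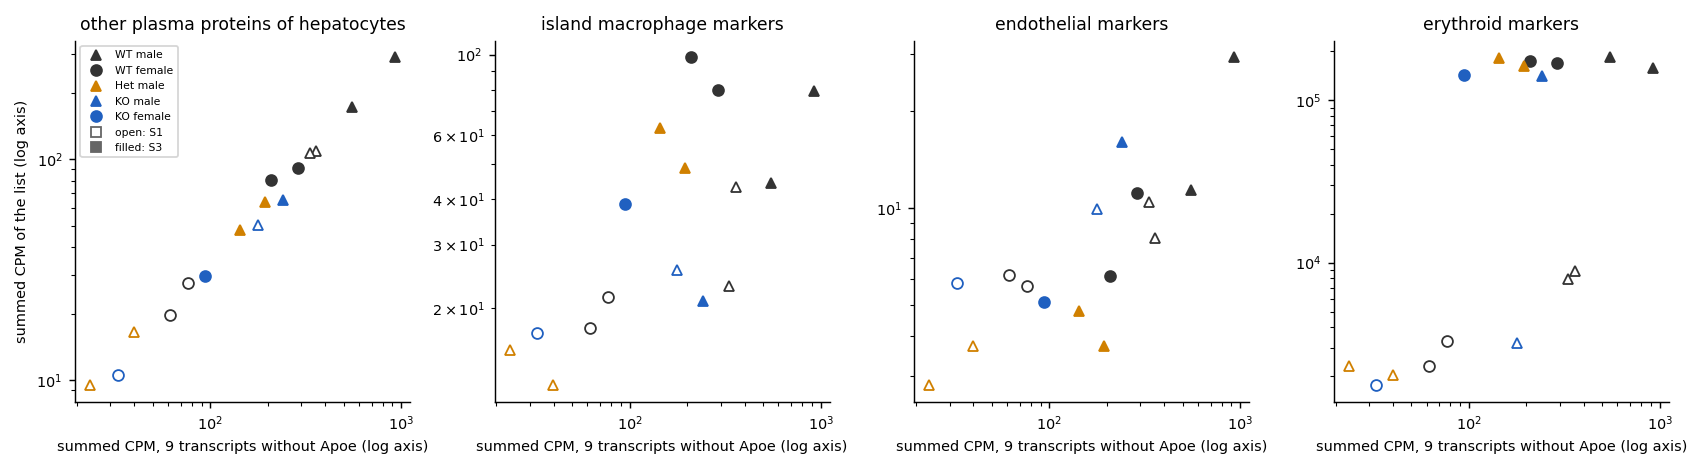
Summed CPM of the 9 transcripts without *Apoe* (x axis, log) against the summed CPM of 4 other gene lists (y axes, log) in the 16 libraries, open for S1 and filled for S3, coloured by genotype and shaped by sex. The other plasma protein genes follow the 9 transcripts through both stages, from 9.51 to 289 CPM, while the erythroid markers form separate groups at S1 and S3.

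Other liver cell lists were also measured against the 10. Endothelial markers summed to between 2.82 and 10.4 CPM at S1 and between 3.74 and 29.3 CPM at S3, where WT embryo 0 was highest in both these markers and the 10 transcripts. *Lyve1* and *Stab2*, of the liver sinusoid, had r of 0.907 and 0.890 to the mean of the 10, and *Vcam1*, of island macrophages, 0.844, the highest of their lists. The medians were 0.761 over 6 endothelial and 0.613 over 14 island macrophage markers, with *Pecam1* at -0.0351 and *Csf1r* at -0.0635. Hepatocyte enzymes summed to between 4.44 and 13.8 CPM at S1 and between 8.44 and 37.7 CPM at S3. In Het at S1 these lists were also at the low end, with endothelial markers at 2.82 and 3.72 CPM and island macrophage markers at 12.3 and 15.4 CPM. Hepatoblast surface and epithelial genes were not, at 20.6 and 20.2 CPM against 16.5 to 37.4 CPM in WT. Hepatic transcription factors summed to 27.9 and 24.1 CPM in Het against 14.9 to 26.5 CPM in WT, with *Hhex* alone averaging 24.25 CPM in Het.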

How the data were processed

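RNA was amplified (SMARTer) and sequenced as poly(A) libraries from S1 and S3 erythroblasts of 8 embryos. The authors mapped reads to mm39 with STAR 2.7.9 and deposited raw counts of read pairs per gene, made with featureCounts 1.6.4 on Ensembl annotation without use of strand, beside the deposited exon length of each gene. Of 20 library columns, 4 matched no sample and were not used. Gene symbols came from the reference annotation, and 667 genes had none.

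Counts were tested with edgeR 4.0.16 in R 4.3.3 (quasi-likelihood, TMM, genes with a mean normalized count above 10 in the libraries of each fit). Adjusted p-values cover all genes tested, with a threshold of 0.05. DESeq2 1.42.0 was an alternative, with other scalings and filters, sex as a covariate, the embryo as a block and each embryo left out. The scripts were tested on simulated data. S1 and S3 libraries with the same number came from the same animal, and in WT embryos their deviations from group means correlated at 0.05 to 0.41 over 13206 genes. In a group of 2 the deviations of the embryos mirror each other and share 1 value, 0.54 in KO and 0.07 in Het. Both these correlations and those of each gene with the mean of the 10 transcripts used log2 of CPM plus a pseudocount of 0.5, and the log2 ratios between stages and between transcripts used none. Named genes were the 10 transcripts, the 5 genes most like them and members of the lists. The 10 transcripts and the lists were chosen with earlier results of these data known, and the comparison of sexes, the fit of male embryos alone and the fit without 1 KO library after seeing the data.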

Additional observations from a re-analysis of the deposited data

Results flagged for a closer look

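*Apoe* in KO against WT lay on opposite sides of 0 at the 2 stages, with an interaction of genotype and stage of -1.86 on the log2 scale (SE 0.46, edgeR adjusted p = 1.0), which did not pass over all genes tested. Both KO libraries were above all WT libraries at S1, as for 6.17% of all genes, by 94.26 against 93.67 CPM at the nearest, and both were below all of them at S3, as for 12.1% of all genes. In the 22 sets of 4 WT values examined, 0 libraries stood far enough from the others to be listed here.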

How the results depend on the processing

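With sex as a covariate the number of the 10 transcripts called lower was 9 in KO at S3, 9 in Het at S1 and 10 in Het at S3, with edgeR and with DESeq2 alike, against 0 with edgeR without it, and in KO at S1 it was 6 with DESeq2. Among male embryos alone, the same contrast as the Het fits with sex, it was 9 in Het at S1 and 10 at S3. Without sex, DESeq2 called 3 in KO at S3 (0.97% of all genes) and 3 in Het at S1 (0.218%), and without a filter on low counts 9 were called in KO at S3 (0.586%) and 6 in Het at S3 (0.225%). With library totals 0 of the 10 were called higher at S3 in WT and 2 over all genotypes, and the summed Het level was 137.2 CPM at S1 and 136.2 CPM at S3. With the embryo as a replicate block 8 were higher in WT, and the block changed no other count. Leaving out 1 embryo gave 2 to 4 higher at S3 in WT and 4 to 7 higher in males at S1. The cause was not tested for any of these.

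For *Apob* the change from S1 to S3 was not called under any setting, and its sign turned. In WT it was 0.265 with upper-quartile scaling, 0.0202 with DESeq2 and -0.779 to 0.638 with an embryo left out. Over all genotypes it was 0.233 with upper-quartile scaling and -0.567 to 0.193 with an embryo left out. The interaction of genotype and stage, also not called, turned sign without KO embryo 9, for all but *Apoe*, and without only its S3 library the median of the 10 went from -0.60 to -1.29. With an embryo left out it ran from -1.04 to 0.215 for *Afp*, -1.06 to 0.0302 for *Alb*, -0.769 to 0.467 for *Ttr*, -0.746 to 0.324 for *Trf*, -0.96 to 0.305 for *Apoa1*, -0.517 to 0.321 for *Apoa2*, -1.31 to 0.975 for *Apob*, -1.03 to 0.174 for *Ahsg* and -0.889 to 0.579 for *Fgb*. With 2 Het and 2 KO embryos an exact test of 2 against 4 could not go below p = 0.0667, and depth limits *Apob* most, with 3 counts in each Het S3 library.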
